A study of Mus musculus with 12 samples.

Results

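Chemokines and their receptors were followed across 6 mouse liver tumors and the livers of the same 6 mice. The members were taken by symbol, as every measured gene named as a Ccl, Cxcl or Cx3cl1 chemokine, a Ccr, Cxcr, Cx3cr1 or Xcr1 receptor, or an atypical receptor of the Ackr series. This gave 61 of the 24421 gene symbols in the count tables. They were 38 chemokines (24 of the CC class, 13 of the CXC class and 1 of the CX3C class) and 23 receptors (11 of the CC class, 6 of the CXC class, 2 of the CX3C and XC classes, and 4 atypical). The rule goes by symbol and uses no measured value, but it was chosen with earlier results of these data known.

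Chemokines are small secreted proteins that guide leukocytes along gradients through G protein-coupled receptors. In the liver, hepatocytes, Kupffer cells, sinusoidal endothelium and stellate cells all release them, and they recruit neutrophils, monocytes and lymphocytes into the tissue. Atypical receptors bind chemokines without the usual G protein signal and remove or store them. Interferons induce Cxcl9, Cxcl10 and Cxcl11, the ligands of the T cell receptor Cxcr3, while Cxcl12 is made constitutively and signals through Cxcr4.

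The mice carried Tert, the catalytic subunit of telomerase, or TertCi, its catalytically inactive form, expressed from the promoter of Cdkn1a (p21). Of the 6 mice, 4 were p21+/Tert (M662, M663, M941 and M992) and 2 were p21+/TertCi (M981 and M984), all older than 18 months and on a standard diet. Each gave a tumor and a non-tumoral liver, and the livers are named L662 to L984 after the mouse. Lists of values run in that order of mice. Every library thus came from a tumor-bearing mouse with a p21 promoter-driven allele, and no wild-type liver was analysed here. The p21+/Tert tumors were T-HCC662, T-HCC663, T-HCC941 and, as an adenoma, T-HCA992, and the p21+/TertCi pair was TCi-HCA984 and TCi-HCC981, where HCC is hepatocellular carcinoma and HCA hepatocellular adenoma; the histology names T-HCC663 an adenoma. By the exome of the study, T-HCC662 and T-HCC663 carried mutated Ctnnb1 (β-catenin), T-HCC941 mutated Egfr, TCi-HCC981 mutated Hras, and T-HCA992 and TCi-HCA984 none of these. The labels give 1 library per tissue and animal, with L662 as the exception. Its title gives a number that the study does not list, and it was placed by the number in its column header. All pairings within M662 rest on that placement.

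Libraries held 14571716 to 26170661 counted reads, of which 7115 to 29973 fell on the members. Values are given as CPM, reads per 1000000 reads of the TMM-scaled library. The β-catenin class was visible in its target Axin2, at 81.2 and 72.9 CPM in T-HCC662 and T-HCC663 and 1.46 to 4.15 CPM in the other tumors. Tert was read in every library, at 10.5 to 17.3 CPM in livers and 4.69 to 26.1 CPM in tumors. The liver L981 stood apart from the other livers, with the highest value among livers for 6 of 6 Kupffer cell, 5 of 7 monocyte and macrophage and 5 of 5 NK cell markers. The same held for 6 of 6 bile duct, 6 of 9 T cell, 4 of 6 dendritic cell and 4 of 8 stellate cell and fibroblast markers. It held for 2 of 7 sinusoidal endothelium, 1 of 5 neutrophil, 0 of 7 B and plasma cell and 0 of 6 hepatocyte markers. In such bulk RNA, more cells of a type and more RNA per cell cannot be told apart.

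Of the 61 members, 30 had a read in every library and 2, Cxcl15 and Ccl26, had none. A mean of at least 1 CPM in livers or in tumors was reached by 37. After the filter on low counts, 37 members (20 chemokines and 17 receptors) entered the comparison of all tumors with all livers, and 47 (30 and 17) entered the comparisons of smaller groups. The 14 members never tested were at or near 0, among them the T cell receptors Ccr4 and Ccr8 and the T cell chemokines Ccl1 and Ccl17. Ccl17 had 12 reads in 6 tumors and 2 in 6 livers.

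Most members lie in gene clusters. On chromosome 11 lie 14 members, 12 of them chemokines, on chromosome 5 there are 11 chemokines, and on chromosome 9 there are 14 receptors. In the 60 members matched to the GENCODE annotation of GRCm38, 11 share exon sequence with another gene, through a copy or an overlap. Among these, Ackr4 overlaps Acad11 and Cxcl16 overlaps Zmynd15 on the opposite strand, and Ccl27a, Ccl21a and Ccl19 have near-identical copies. Reads of such pairs may be split or lost in counting, and strand use was not stated. Cxcl10 also overlaps Art3 on the opposite strand.

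The promoters of a few members are shown because the values below turn on these genes. Sequences are from RefSeq (GRCm38.p6) and run 5′ to 3′ on the strand of the gene, and the first 3 end at the base before its start. Capitals mark a κB-like motif (GGGANTTTC), an interferon-stimulated response element-like motif (GAAANNGAA) or a TCF/LEF motif (CTTTGAT), each searched on both strands. In the Cxcl9 and Cxcl10 promoters (chr5:92328080-92328329 and chr5:92348890-92349139, both on the minus strand) the response element lies at -175 to -167 and at -213 to -205 from the start, and Cxcl9 has the κB motif at -154 to -146. The Cxcl12 promoter (chr6:117168285-117168534, plus strand) has the TCF/LEF motif at -163 to -157.
Cxcl9: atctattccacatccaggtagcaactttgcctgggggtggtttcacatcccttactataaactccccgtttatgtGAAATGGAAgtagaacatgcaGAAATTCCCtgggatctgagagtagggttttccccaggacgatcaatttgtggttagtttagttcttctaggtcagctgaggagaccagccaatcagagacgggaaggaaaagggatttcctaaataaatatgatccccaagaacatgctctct
Cxcl10: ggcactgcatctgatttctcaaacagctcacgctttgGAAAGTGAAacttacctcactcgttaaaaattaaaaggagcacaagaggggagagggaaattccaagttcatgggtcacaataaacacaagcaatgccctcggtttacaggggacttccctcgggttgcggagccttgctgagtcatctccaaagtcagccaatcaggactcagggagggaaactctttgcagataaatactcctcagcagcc
Cxcl12: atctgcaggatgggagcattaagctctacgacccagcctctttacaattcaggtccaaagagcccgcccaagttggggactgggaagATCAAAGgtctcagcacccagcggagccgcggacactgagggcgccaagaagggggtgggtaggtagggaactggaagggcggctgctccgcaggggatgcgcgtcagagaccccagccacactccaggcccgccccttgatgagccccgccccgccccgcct

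The neutrophil chemokines Cxcl1, Cxcl2 and Cxcl3 lie in 1 cluster on chromosome 5, and the same 9 letters recur close to the start of each. The stretches shown, each with 40 bases on either side of the motif and ending short of the start, are chr5:90891134-90891222, chr5:90903762-90903850 and chr5:90785988-90786076, all on the plus strand, with the κB motif in capitals.
Cxcl1: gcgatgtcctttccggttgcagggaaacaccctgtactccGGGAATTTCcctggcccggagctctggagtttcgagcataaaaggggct
Cxcl2: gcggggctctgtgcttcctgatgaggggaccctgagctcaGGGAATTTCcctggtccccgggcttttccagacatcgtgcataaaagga
Cxcl3: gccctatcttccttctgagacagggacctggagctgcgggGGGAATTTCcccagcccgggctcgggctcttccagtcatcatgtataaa

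Over all 32851 promoters of the table (300 bases each), 1.11% held the κB motif, 8.56% the response element and 3.73% the TCF/LEF motif. An AP-1 motif (TGANTCA) was also searched, and 7.81% held it. The 45 members found there had 52 promoters. Of these, 6 held the κB motif (Ccr3, Cxcl1, Cxcl2, Cxcl3, Cxcl9 and Cxcr2), 8 the response element and 2 the TCF/LEF motif (Cxcl12 and Xcr1). The AP-1 motif was in 10 promoters of 9 members (Ccl27a, Ccl27b, Ccl28, Ccl9, Ccr1l1, Ccr3, Ccr4, Cxcl10 and Cxcl9). These are matches of letters, and binding was not measured.

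**Figure D1:**
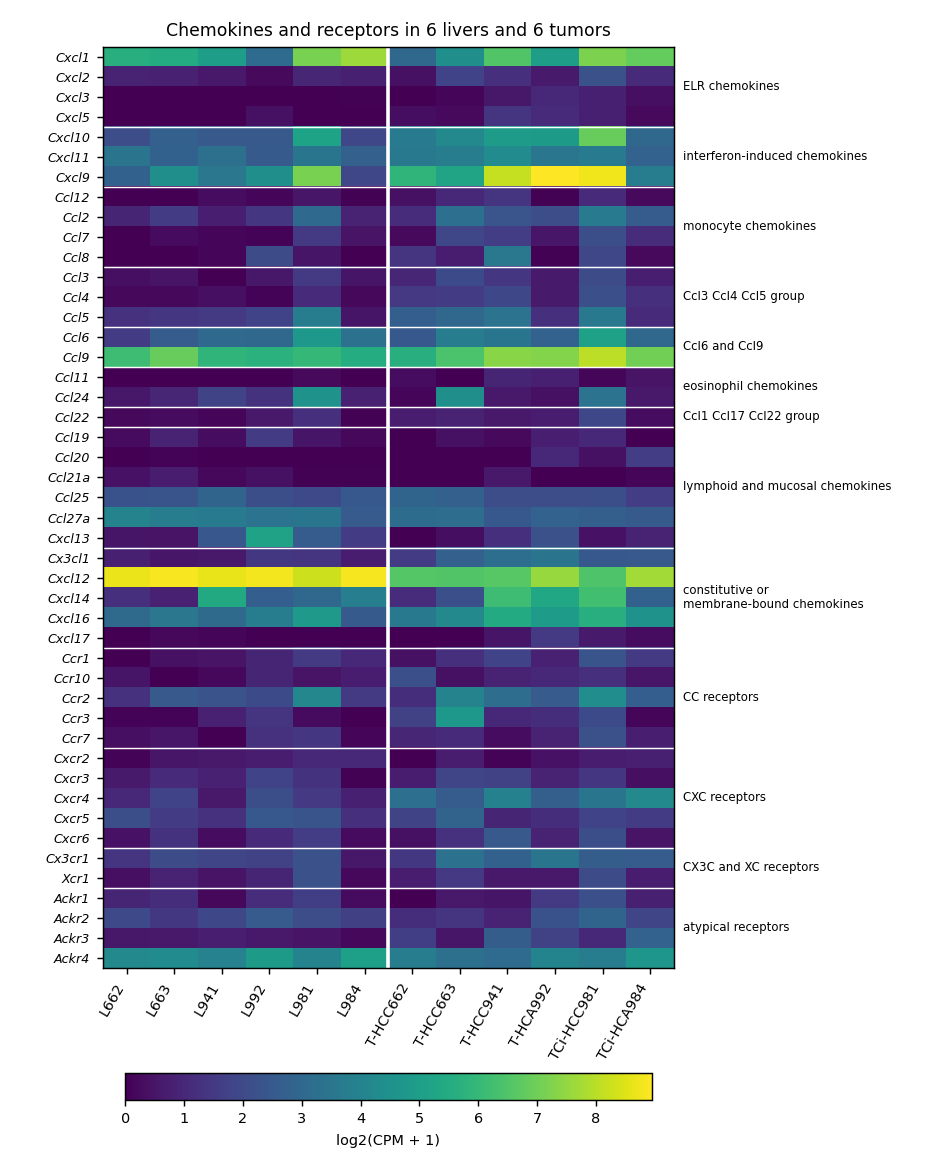
Level of 46 of the 47 tested members in each library, as log2(CPM + 1) from 0 (dark) to about 9 (yellow), with rows grouped by role and a white line between the 6 livers and the 6 tumors. Cxcl12 is bright in all livers and dimmer in all tumors, and Cxcl9 is brightest in T-HCC941, T-HCA992 and TCi-HCC981.

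Per kb of exon, the chemokines with the highest mean level were Cxcl9, Cxcl1, Ccl9, Cxcl12 and Cxcl14, in that order, at 41.9, 38.8, 34.2, 33.1 and 12.1 CPM per kb over the 12 libraries. Cxcl12 led in the 4 p21+/Tert livers, with 35.7% to 41.4% of the summed chemokine level per kb. The neutrophil chemokine Cxcl1 led in both p21+/TertCi livers, with 26.6% in M981 and 51.9% in M984. In tumors the leading chemokine was Cxcl9 in T-HCC662, T-HCC941, T-HCA992 and TCi-HCC981 (22.1%, 27.5%, 50.2% and 28.0%), Ccl9 in T-HCC663 (19.8%) and Cxcl1 in TCi-HCA984 (35.2%). Cxcl12 held 2.15% to 14.9% of the sum in tumors. Among receptors, Ackr4 led per kb in 5 of the 6 livers. Cxcr4 led in 5 of the 6 tumors and Ccr3 in T-HCC663.

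Comparing all tumors with all livers asked which chemokine signals set the neoplasms apart from the tissue around them. Cxcl12, the ligand of Cxcr4, fell, while Cxcr4, the atypical Cxcl12 receptor Ackr3, the membrane-bound chemokine Cx3cl1 and the macrophage chemokine Ccl4 rose. These 5 of 37 tested members (13.5%) passed an adjusted p of 0.05 over all genes in edgeR, where 10.7% of 13822 genes did. The median log2 change of the 37 members was 0.89 against 0.01 over all genes, with 28 of 37 above 0 against 50.9% of genes. For the 20 chemokines the median was 1.14 and for the 17 receptors 0.76.

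Cxcl12 stood at 410, 459, 405, 439, 307 and 456 CPM in the livers L662, L663, L941, L992, L981 and L984. In the tumors of these mice it was 95.7, 90.8, 97.3, 188, 89.3 and 208 CPM. All tumors lay below all livers, and the 2 adenoma-named tumors of the class with neither mutation were the highest of the tumors. On the log2 scale of the edgeR fit it fell by 1.69 (SE 0.262, adjusted p = 0.0023).

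Its receptor Cxcr4 moved the other way. Livers held 1.06, 2.45, 0.531, 3.49, 1.81 and 0.727 CPM in the same order, and tumors 8.74, 5.08, 14.1, 5.59, 10.2 and 17.3 CPM. All tumors were above all livers, with a log2 change of 2.59 (SE 0.477, adjusted p = 0.00521). Ackr3, which scavenges Cxcl12, ran from 0.145 to 0.683 CPM in livers and was 2.16, 0.438, 5.18, 2.29, 0.976 and 6.08 CPM in tumors. It was higher in the tumor in 5 of 6 mice, the exception being M663, and its log2 change was 2.63 (SE 0.61, adjusted p = 0.0162). With the mouse as a block its adjusted p was 0.0501.

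Cx3cl1, or fractalkine, is a membrane-anchored chemokine that binds Cx3cr1 on monocytes and NK cells. It stood at 0.706, 0.451, 0.531, 1.72, 1.6 and 0.63 CPM in livers and 2.03, 5.74, 8.31, 9.93, 4.47 and 4.71 CPM in tumors, again without overlap. The log2 change was 2.62 (SE 0.46, adjusted p = 0.00427). Cx3cr1 was 1.62, 3.16, 2.65, 2.31, 3.61 and 0.485 CPM in livers and 1.76, 9.29, 5.88, 10.2, 5.29 and 5.05 CPM in tumors. It was higher in the tumor in all 6 mice, but its log2 change of 1.43 (SE 0.471) missed the threshold (adjusted p = 0.0695).

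**Figure D2:**
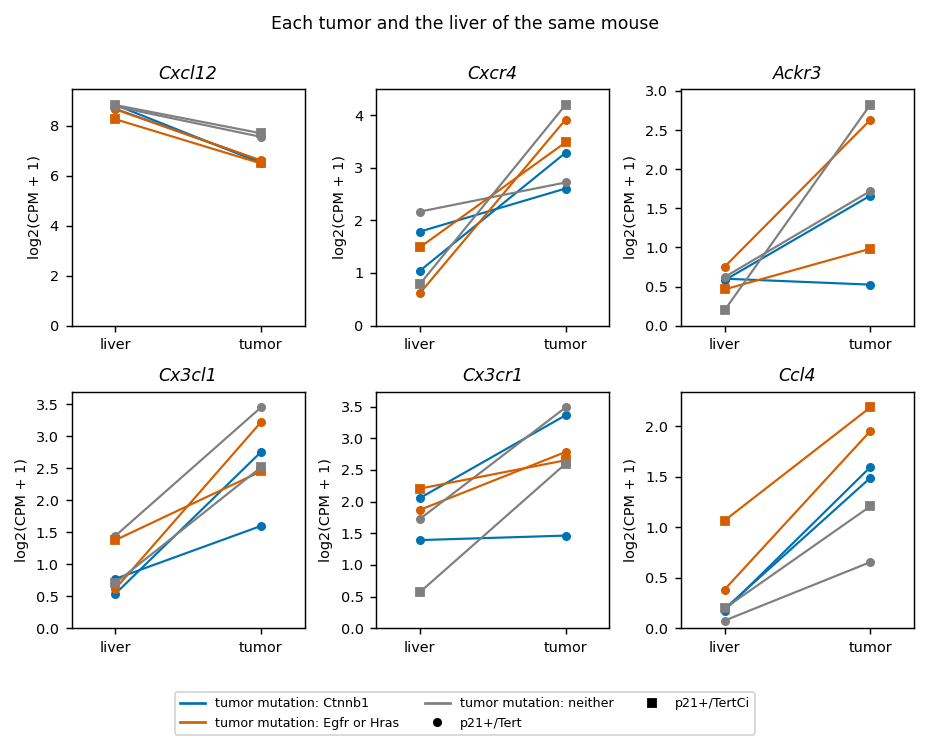
Cxcl12, Cxcr4, Ackr3, Cx3cl1, Cx3cr1 and Ccl4 as log2(CPM + 1) in each liver and in the tumor of the same mouse, joined by a line. Color gives the mutation class of the tumor and the marker gives the genotype; Cxcl12 falls and Cxcr4 and Cx3cl1 rise along all 6 lines.

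Ccl4, like Ccl3 and Ccl5, is an inflammatory CC chemokine made by macrophages, T cells and NK cells. It was 0.141, 0.129, 0.303, 0.0537, 1.09 and 0.145 CPM in livers and 1.8, 2.02, 2.86, 0.573, 3.54 and 1.31 CPM in tumors, higher in the tumor in every mouse. Its log2 change was 2.60 (SE 0.666, adjusted p = 0.0259), and 3.67 (adjusted p = 0.00337) without L981. The call was lost without L662, L663, L941 or L984, without T-HCC941 or without TCi-HCC981 (adjusted p of 0.0503 to 0.0633). Ccl3, at 0 to 1.85 CPM in livers and 0.573 to 3.18 CPM in tumors, was also higher in the tumor in 6 of 6 mice and was not called.

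Same-numbered tumors and livers were taken as 1 animal, with L662 placed as given above. With the mouse as a block 11 members were called, against 15.9% of all genes. Cxcl12, Cxcr4, Cx3cl1 and Ccl4 were called in both fits. The block added the interferon-induced Cxcl9 and Cxcl10, the monocyte chemokine Ccl2 and Cxcl16 as higher, and Ccl27a, Cxcl13 and Ackr4 as lower. Without L981 and without the block, 10 of 38 tested members were called (9 higher and 1 lower), where 11.6% of genes were. These were the 5 above with Cxcl9, Cxcl10, Cxcl16, Ccl2 and Ccl3.

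In all, 14 members had more in the tumor than its own liver in 6 of 6 mice, and 4 had less in 6 of 6 (Cxcl12, Cxcl13, Ccl27a and Ackr4). Among members at 1 CPM or more in either tissue of a mouse, those at least 2-fold higher in the tumor numbered 11 of 26 in M662, 23 of 34 in M663, 24 of 34 in M941, 14 of 36 in M992, 16 of 40 in M981 and 14 of 29 in M984. Those at least 2-fold lower numbered 3 to 7 per mouse. The same counts were not made over all genes, so they do not set the family apart from other genes.

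Of the interferon-induced chemokines, Cxcl9, which draws activated T cells through Cxcr3, was 5.86, 21.1, 10.6, 20.8, 142 and 2.71 CPM in livers and 57.2, 36.4, 284, 492, 429 and 12.6 CPM in tumors. It was 1.73-fold higher in the tumor of M663, 26.8-fold in M941 and 23.7-fold in M992. Both L981 and TCi-HCC981 were high, and both tissues of M984 were the lowest of their kind. Its log2 change over all tumors was 2.68 (SE 1.05, adjusted p = 0.121), with adjusted p = 0.0178 with the mouse as a block and a log2 change of 4.16 (adjusted p = 0.0187) without L981.

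Cxcl10, another Cxcr3 ligand, followed a like order, at 3.32, 5.74, 4.7, 4.62, 35.3 and 2.71 CPM in livers and 11.5, 17.4, 30.1, 28.2, 116 and 6.87 CPM in tumors. Each tumor exceeded its own liver by 2.53- to 6.41-fold, and the blocked log2 change was 1.95 (SE 0.212, adjusted p = 0.00301) against 1.88 (SE 0.786, adjusted p = 0.146) without the block. Without L981 the unblocked value was 3.05 (adjusted p = 0.0142). Cxcl11 was 9.82, 5.93, 8.8, 4.78, 10.1 and 5.72 CPM in livers and 11.3, 12.5, 19.1, 10.5, 11.5 and 5.96 CPM in tumors, higher in the tumor in all 6 mice (log2 change 0.64, SE 0.279, adjusted p = 0.164). Its gene is annotated as a polymorphic pseudogene and overlaps Gm2673. Their receptor Cxcr3 stood at 0.0485 to 2.52 CPM in livers and 0.284 to 2.63 CPM in tumors and was not called.

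**Figure D3:**
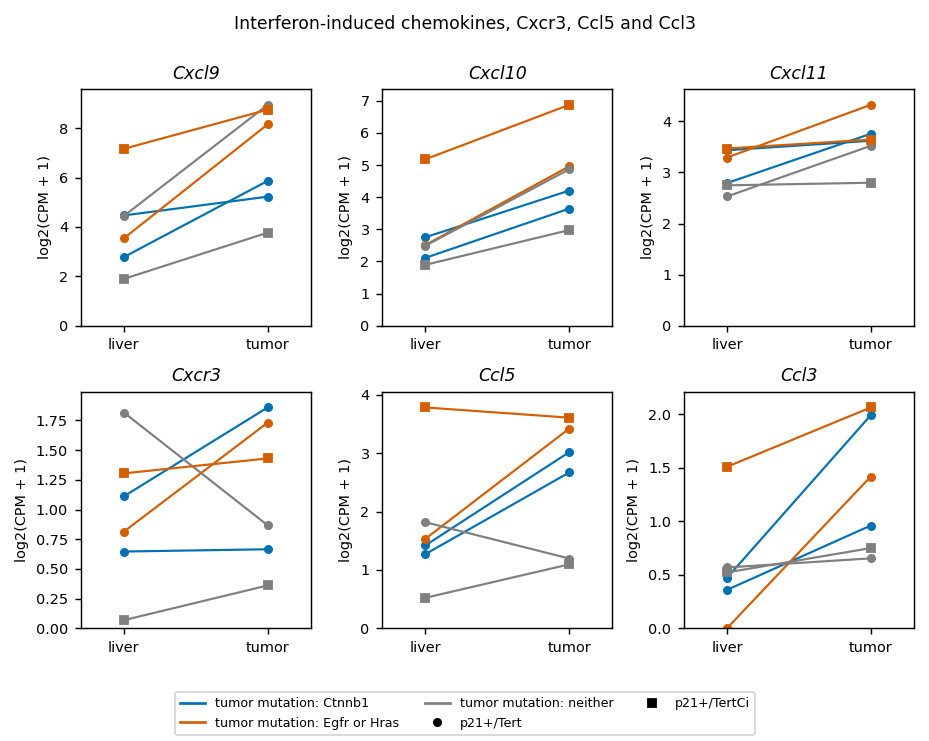
Cxcl9, Cxcl10, Cxcl11, Cxcr3, Ccl5 and Ccl3 as log2(CPM + 1) in each liver and the tumor of the same mouse. Cxcl9, Cxcl10 and Cxcl11 rise along all 6 lines, and L981 is the highest liver for these and for Ccl5 and Ccl3.

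Ccl5, which recruits T cells and macrophages, was 1.41, 1.68, 1.9, 2.52, 12.8 and 0.436 CPM in livers and 5.36, 7.1, 9.72, 1.29, 11.2 and 1.14 CPM in tumors. It was 3.8- to 5.13-fold higher in the tumors of M662, M663 and M941, lower in those of M992 and M981, and 2.6-fold higher in that of M984. It did not pass the test. Summed T cell markers (9 of 10 listed) ran from 1.55 to 18.2 CPM in livers and 3.29 to 41.6 CPM in tumors. They were highest in T-HCC941, with Cd3e at 0 in L941 and Cd5 and Cd8b1 at 0 in L984. NK markers (5 of 5) ran from 0.291 to 7.6 CPM in livers and 0.568 to 12.5 CPM in tumors, with Ncr1, Gzma and Eomes at 0 in at least 1 library each. Their part in the Ccl5 and Cxcl9 values was not tested.

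Ccl2, the main chemokine for Ccr2-bearing monocytes, was 0.918, 1.93, 0.683, 1.66, 7.31 and 0.872 CPM in livers and 1.17, 8.72, 4.16, 3.3, 11.5 and 5.05 CPM in tumors, 1.28- to 6.09-fold higher in each tumor. With all libraries it was called only in the blocked fit (adjusted p = 0.033), and without L981 it was called without the block (adjusted p = 0.0233). Its relative Ccl7 was higher in the tumor in 6 of 6 mice as well, at 0 to 1.89 CPM in livers and 0.18 to 3.39 CPM in tumors. Ccl8 reached 10.9 CPM in T-HCC941 and 3.17 CPM in L992 and was at most 2.77 CPM elsewhere.

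The receptor Ccr2 was 1.41, 4.71, 3.94, 3.06, 16.8 and 1.84 CPM in livers and 1.26 to 19.9 CPM in tumors, with M981 highest in both tissues. T-HCC662 was the only tumor below its own liver, and the gene was not called. The macrophage markers (7 of 7, none at 0) summed to 50.0 to 642 CPM in livers and 120 to 549 CPM in tumors. Those of Kupffer cells (6 of 6) summed to 97.5 to 1108 CPM in livers and 27.8 to 716 CPM in tumors, with Marco at 0 in T-HCC662. Their part in the Ccl2, Ccl4 and Ccr2 values was not tested. Ccl22, which attracts Ccr4-bearing T cells, was higher in the tumor in 6 of 6 mice at low levels, 0.0485 to 1.3 CPM in livers and 0.227 to 2.82 CPM in tumors.

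Cxcl16, a membrane-bound ligand of Cxcr6, was 7.63, 10.6, 7.51, 12.7, 26.8 and 4.75 CPM in livers and 11.2, 17.3, 42.9, 29.8, 47.7 and 22.5 CPM in tumors. Every tumor exceeded its own liver, least in the 2 Ctnnb1 tumors (1.47- and 1.64-fold) and in TCi-HCC981 (1.78-fold). With the mouse as a block the log2 change was 1.33 (SE 0.292, adjusted p = 0.022), and without L981 and the block it was 1.72 (adjusted p = 0.0149). Cxcr6 ran from 0.194 to 2.1 CPM in livers and 0.315 to 4.64 CPM in tumors and was not called.

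Among the members that were lower in every tumor, Ccl27a was 14.9, 12.5, 12.0, 9.5, 10.2 and 4.94 CPM in livers and 7.89, 8.2, 4.54, 5.98, 5.5 and 4.83 CPM in tumors. Cxcl13, the B cell follicle chemokine, was highest in L992 at 34.5 CPM, against at most 5.04 CPM in every other library. That liver also had the highest sum of the 7 B and plasma cell markers, 140 CPM, against 3.15 to 26.6 CPM in other livers and 5.27 to 33.4 CPM in tumors. Ms4a1 was at 0 in L984, T-HCC663 and TCi-HCA984 and Pax5 in T-HCC941 and TCi-HCA984, and the part of such cells in the Cxcl13 values was not tested. Its receptor Cxcr5 stood at 1.36 to 4.51 CPM in livers and 0.918 to 6.22 CPM in tumors.

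The atypical receptors differed in direction. Ackr4, which takes up the Ccr7 and Ccr9 ligands, was 17.6, 18.8, 14.5, 28.4, 14.9 and 32.1 CPM in livers and 12.9, 8.76, 7.72, 15.5, 12.6 and 25.3 CPM in tumors, lower in each tumor and called only with the block. Ackr2, a scavenger of inflammatory CC chemokines, was lower in the tumor in all 4 p21+/Tert mice and higher in both p21+/TertCi mice. It was 2.9, 1.74, 2.88, 4.94, 3.32 and 2.23 CPM in livers and 1.26, 1.53, 0.864, 3.76, 6.42 and 2.61 CPM in tumors. Ackr1, a chemokine-binding protein of venules and red cells, was 0.152 to 2.18 CPM in livers and 0 to 3.6 CPM in tumors. It was at 0 reads in T-HCC662.

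By genotype, the 4 p21+/Tert tumors against the 4 p21+/Tert livers gave 3 called members of 47, where 6.49% of 15182 genes were called. They were Cxcl12 (log2 change -1.88, SE 0.334, adjusted p = 0.0108), Cx3cl1 (2.89, SE 0.597, adjusted p = 0.0197) and Ccl4 (3.49, SE 0.818, adjusted p = 0.0301). The Cx3cl1 call was lost without L662, L663 or L941 (adjusted p of 0.0619 to 0.0742). That of Ccl4 was lost without any of the 4 livers and without T-HCC663 or T-HCC941 (adjusted p of 0.0501 to 0.1). With the mouse as a block 7 members were called, against 8.61% of genes: these 3 with Cxcl9, Cxcl10 and Ccl7 as higher and Ackr4 as lower.

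The 2 p21+/TertCi tumors against their 2 livers gave 0 called members and 0% of genes in edgeR, with or without the block. There were 7 of 47 members at an unadjusted p under 0.05, against 10.7% of genes, and DESeq2 called 2, Cxcr4 and Ackr3. These 2 also had the smallest p in edgeR and missed its threshold. Cxcr4 was 1.81 CPM in the liver and 10.2 CPM in the tumor of M981, and 0.727 and 17.3 CPM in M984 (log2 change 3.42, SE 0.853, adjusted p = 0.217). Ackr3 was 0.378 and 0.976 CPM in M981 and 0.145 and 6.08 CPM in M984 (log2 change 3.70, SE 1.13, adjusted p = 0.322).

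The change from liver to tumor was also compared between the genotypes as an interaction, and 0 of 47 members and 0% of genes passed in edgeR. At an unadjusted p under 0.05 there were 0 members and 3.66% of genes, and DESeq2 called 0 members. The smallest p values were those of Ccl9 (difference of log2 changes, p21+/TertCi minus p21+/Tert, 1.28, SE 0.697) and Ccl7 (-2.95, SE 1.63), both with adjusted p = 1. The interaction rests on 2 p21+/TertCi mice.

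Between the livers of the genotypes, 0 members and 0% of genes passed in edgeR, and DESeq2 called 0 members. An unadjusted p under 0.05 was reached by 5 members, all higher in p21+/TertCi livers, against 4.98% of genes. Ccl7 was 0, 0.193, 0.0758 and 0.0537 CPM in p21+/Tert livers and 1.89 and 0.388 CPM in p21+/TertCi livers (log2 change 3.72, SE 1.18, adjusted p = 0.93). Cxcl1 was 48.4, 43.9, 31.2 and 7.78 CPM against 141 and 196 CPM, without overlap (log2 change 2.37, SE 0.796, adjusted p = 0.93). Summed neutrophil markers (5 of 6 measured) overlapped between the genotypes, at 1.63 to 27.3 CPM in p21+/Tert livers and 9.24 and 9.98 CPM in p21+/TertCi livers, with Mpo at 0 in L984 and Camp in L662 and L984.

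By mutation, the 2 Ctnnb1 tumors were set against the 4 other tumors. Both Ctnnb1 tumors were p21+/Tert and both p21+/TertCi tumors were among the others. Genotype and mutation are thus partly mixed here, and the model held no term for genotype. Ccl9, a myeloid chemokine that binds Ccr1, and the mucosal chemokine Cxcl17 were lower in the Ctnnb1 tumors. They were the 2 called members of 47, where 12.5% of genes were called. The median log2 difference over the members was -0.50 against -0.004 over all genes, and 14 of 47 were above 0 against 49.8% of genes. Some of these members, Cxcl17 among them, passed the filter on low counts only through the other tumors, in which they were high. The median and the share above 0 are therefore no test of the family.

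Ccl9 was 48.1 and 84.7 CPM in T-HCC662 and T-HCC663 and 162, 153, 266 and 132 CPM in the tumors of M941, M992, M981 and M984. The classes did not overlap, with a log2 difference of -1.41 (SE 0.395, adjusted p = 0.0396). In the livers of these mice the order was the opposite, with 70.3 and 117 CPM in M662 and M663 and 57.5, 52.0, 61.8 and 45.9 CPM in the others. Ccl9 thus stood below the own liver in both Ctnnb1 tumors (0.685- and 0.726-fold) and 2.82- to 4.3-fold above it in the 4 others. With the mouse as a block, which compares these changes, Ccl9 was the only called member (log2 difference -2.18, SE 0.282, adjusted p = 0.0156), against 2.9% of genes. Without the block its call was lost on leaving out any single tumor other than T-HCC941 (adjusted p of 0.0624 to 0.253).

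Cxcl17 was at 0 reads in both Ctnnb1 tumors and at 0.432, 1.86, 0.565 and 0.227 CPM in the others. It passed the filter on low counts through those others, so its call is not independent of the filter. Set against a floor of 3 counts over both libraries, it was at least 13.5-fold lower in the Ctnnb1 tumors. T-HCA992 held 52 of the 75 reads, and without it the bound was 6.21-fold. Its adjusted p was 0.0436, and 0.218 with the mouse as a block. The call was lost on leaving out any single tumor other than TCi-HCA984 (adjusted p of 0.0621 to 0.18). Ccl20, the ligand of Ccr6, was likewise at 0 reads in both Ctnnb1 tumors and T-HCC941 and at 1.0, 0.308 and 2.1 CPM in T-HCA992, TCi-HCC981 and TCi-HCA984. Its adjusted p was 0.0501. Such floors cover counting error only.

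Other cell markers also differed between these classes. The 6 bile duct markers summed to 17.8 and 35.8 CPM in the Ctnnb1 tumors, 60.8 to 1065 CPM in the others and 51.1 to 134 CPM in livers, with the highest sum in T-HCA992, where Spp1 alone was 1037 CPM. Krt7, Krt19 and Cftr were at 0 in at least 1 library each. The 6 hepatocyte markers, none at 0, summed to 31450 and 15080 CPM in the Ctnnb1 tumors, 60810 to 91920 CPM in the others and 25210 to 48660 CPM in livers. The hepatocyte gene Alb by itself was 16620 and 5982 CPM, 47660 to 72140 CPM and 9546 to 31960 CPM in the same order. Only 2 of the 6 markers were higher in the other tumors than in livers, with 1 called higher and 1 called lower. The part of bile duct cells and hepatocytes in the Ccl9, Cxcl17 and Ccl20 values was not tested.

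**Figure D4:**
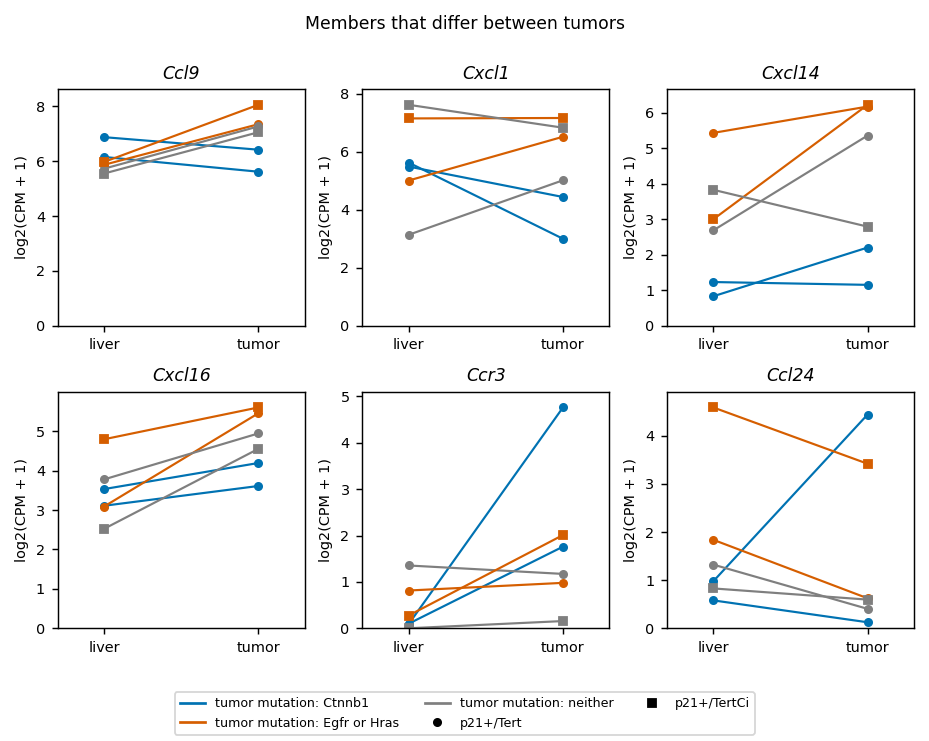
Ccl9, Cxcl1, Cxcl14, Cxcl16, Ccr3 and Ccl24 as log2(CPM + 1) in each liver and the tumor of the same mouse. Ccl9 falls along the 2 blue lines (Ctnnb1) and rises along the 4 others, and T-HCC663 is the highest tumor for Ccr3 and Ccl24.

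Other members spread widely over the tumors without a call in edgeR. DESeq2 called 4 more members between these classes, Cxcl14, Cxcl1 and Cxcl12 as lower in the Ctnnb1 tumors (adjusted p = 0.0167, 0.0169 and 0.0245) and Ccr3 as higher (adjusted p = 0.0454). Cxcl14, a constitutive epithelial chemokine, had the largest SD of log2(CPM + 1) across tumors. It was 1.22 and 3.59 CPM in the Ctnnb1 tumors and 71.0, 39.9, 73.6 and 5.91 CPM in the others, without overlap (log2 difference -4.09, SE 1.52, adjusted p = 0.0976). The livers of the same mice differed in a like way, at 1.34 and 0.774 CPM against 42.1, 5.42, 6.97 and 13.2 CPM, and the blocked difference was -0.41 (SE 1.49). Cxcl1, which draws neutrophils through Cxcr2, was 6.98 and 20.7 CPM in the Ctnnb1 tumors, below their own livers, and 90.6, 31.4, 143 and 113 CPM in the others (log2 difference -2.74, SE 1.13, adjusted p = 0.128). The p21+/TertCi tumors were the highest, and their livers were the highest livers, at 141 and 196 CPM.

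The other neutrophil chemokines were scarce. Cxcl2 was 0.161 to 0.924 CPM in livers and 0.315 to 3.65 CPM in tumors. Cxcl3 had 1 read in all 6 livers, 2 in the Ctnnb1 tumors and 57 in the 4 others. Their receptor Cxcr2 was 0.0706 to 1.02 CPM in livers and 0 to 0.738 CPM in tumors, and Cxcr1 did not enter the tests. Summed neutrophil markers were 0.496 and 4.25 CPM in the Ctnnb1 tumors and 2.97 to 11.9 CPM in the others, with Camp at 0 in both Ctnnb1 tumors and TCi-HCA984 and Mpo in T-HCC662 and T-HCA992. Their part was not tested.

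T-HCC663 differed from T-HCC662 within the Ctnnb1 class. It held 26.2 CPM of Ccr3, the eosinophil receptor, against 2.39 CPM in T-HCC662, 0.114 to 3.03 CPM in the other tumors and at most 1.56 CPM in livers. It also held 20.8 CPM of Ccl24, a Ccr3 ligand, against 0.0901 CPM in T-HCC662. Ccl24 was otherwise high only in the tissues of M981, at 23.1 CPM in the liver and 9.71 CPM in the tumor. Another Ccr3 ligand, Ccl11, had 51 reads in the 6 tumors and 4 in the 6 livers. T-HCC663 had none of them. The Kupffer cell marker sum was also highest in the 3 libraries high in Ccl24, at 1108 CPM in L981, 716 CPM in TCi-HCC981 and 454 CPM in T-HCC663, against 27.8 to 240 CPM in the others. Its part in the Ccl24 values was not tested.

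Against the 6 livers, the 2 Ctnnb1 tumors gave 3 called members of 47, where 8.2% of genes were called. Cxcl12 was lower (log2 change -2.17, SE 0.239, adjusted p = 0.000404), and Ccr3 (4.97, SE 1.16, adjusted p = 0.0243) and Cx3cl1 (2.00, SE 0.56, adjusted p = 0.0491) were higher. The Ccr3 value rested on T-HCC663, and without that tumor it was 2.41 (adjusted p = 0.463). The Cx3cl1 call was lost without either tumor and without L662, L663, L941 or L984 (adjusted p of 0.0598 to 0.508). With the block 5 members were called, against 5.61% of genes: Cxcl12 as lower and Ccr3, Ccl4, Cxcl10 and Ccl6 as higher. Without L981 there were also 5, against 8.8% of genes: Cxcl12, Ccr3, Cx3cl1, Ccl4 and Ccl5.

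The 4 other tumors gave 13 called members of 47 (27.7%), where 22.8% of genes were called, 11 higher and 2 lower. Some of these members passed the filter on low counts only through the tumors in which they were high, as given below. The 2 shares are therefore no test of the family. The same 6 livers serve both comparisons. Cxcl12 fell (log2 change -1.62, SE 0.174, adjusted p = 0.000188) and so did Ccl27a (-1.05, SE 0.281, adjusted p = 0.0211). Cx3cl1 (2.82, SE 0.481), Cxcr4 (2.79, SE 0.506), Ackr3 (2.96, SE 0.614), Ccl9 (1.36, SE 0.272), Cxcl16 (1.54, SE 0.392) and Ccl4 (2.38, SE 0.686) rose, with adjusted p from 0.00215 to 0.0287.

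The other 5 that rose were low in abundance, and none of them passed the filter on low counts in all tumors against all livers. With the smaller groups used here they passed it through the tumors in which they were high. Their calls are thus not independent of the filter. Cxcl3, Cxcl5, Ccl20 and Cxcl17 had 57, 77, 71 and 75 reads in the 4 tumors against 1, 6, 1 and 3 in the 6 livers, and Ccl11 had 46 against 4. With exact 95% counting intervals these are ratios of 72.3 (12.5 to 2905), 16.3 (7.15 to 45.7), 90.1 (15.7 to 3606), 31.7 (10.4 to 157) and 14.6 (5.33 to 55.8). For Cxcl17 and Ccl20 the ratio fell by more than 1.5 times without the tumor with most reads, to 14.6 (4.41 to 76.0) without T-HCA992 and to 54.6 (9.17 to 2221) without TCi-HCA984. Such intervals cover counting error only, not the spread between mice.

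Of the 12 smallest p values in this comparison, the calls of Cxcl12, Cx3cl1, Cxcl3, Cxcr4, Ccl9 and Ackr3 held on leaving out any 1 of the 10 libraries compared. Those of Cxcl16 and Cxcl17 were lost without T-HCA992 (adjusted p = 0.0626 and 0.102) and that of Ccl20 without TCi-HCC981 (adjusted p = 0.984). That of Ccl27a was lost without any 1 of the 4 tumors (0.0506 to 0.0727). That of Cxcl5 was lost without L662 or L663, T-HCC941 or T-HCA992 (0.0519 to 0.181). That of Ccl4 was lost without L662, L663 or L941 or without T-HCC941, TCi-HCC981 or TCi-HCA984 (0.0528 to 0.091). With the block 13 members were called too, 9 of them in both fits, against 20.7% of genes. The calls of Cxcl3 (adjusted p = 0.0554), Ccl20 (0.0669), Ccl27a (0.0512) and Ccl11 (0.152) were lost there, and Cx3cr1, Cxcl9, Cxcl10 and Cxcl13 were gained. Without L981 there were 18, against 24% of genes, Cxcl9 (log2 change 4.61, SE 0.888, adjusted p = 0.00477) and Cxcl10 (3.08, SE 0.474, adjusted p = 0.00159) among them.

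**Figure D5:**
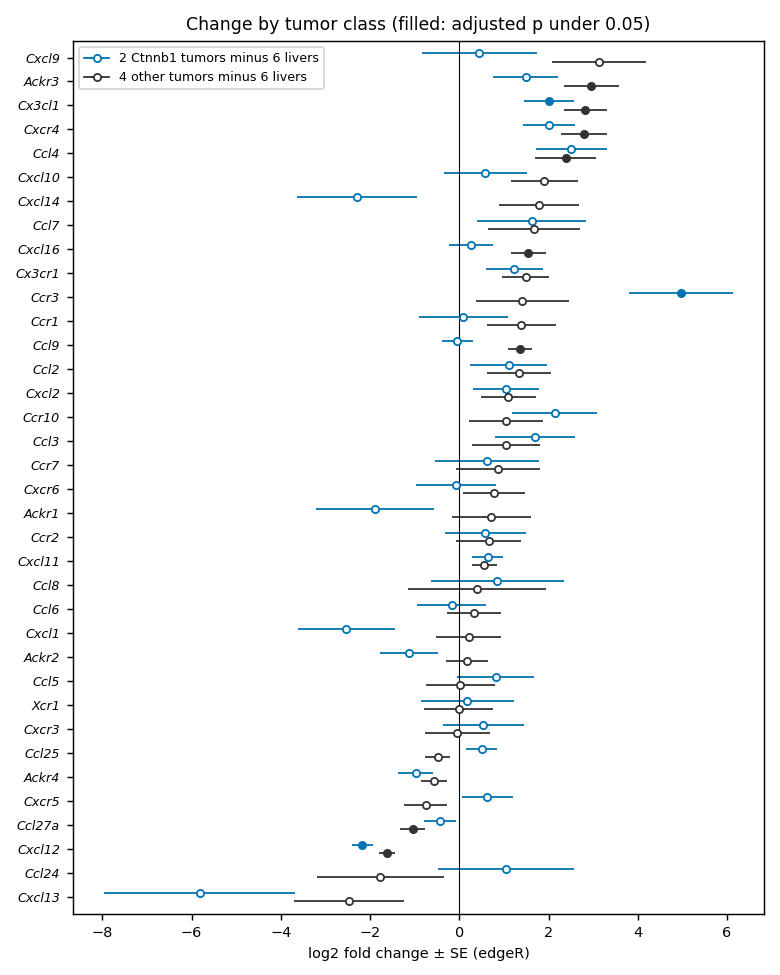
Log2 fold change with its SE against the 6 livers for 36 of the 37 members at 1 CPM or more on average in livers or tumors, in the 2 Ctnnb1 tumors (blue) and the 4 other tumors (black), with filled points at an adjusted p under 0.05. Cxcl12 is below 0 and Cx3cl1 above 0 in both classes, and Ccl9 and Cxcl16 are filled for the other tumors alone.

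Stromal markers moved with the classes. The 8 stellate cell and fibroblast markers, none at 0, summed to 29.1 and 69.7 CPM in the Ctnnb1 tumors, 137 to 300 CPM in the other tumors and 57.9 to 251 CPM in livers. Stellate cells are a known source of Cxcl12. The part of such cells in the Cxcl12 values was not tested. The 7 sinusoidal endothelium markers, also none at 0, summed to 97.5 and 161 CPM, 217 to 346 CPM and 83.0 to 232 CPM in the same order.

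The 2 tumors with mutated Egfr or Hras were also set against the 2 with neither mutation, and 0 members and 0% of genes passed in edgeR. There were 7 members at an unadjusted p under 0.05, against 8.77% of genes, and DESeq2 called 1, Cxcl12. Cxcl12 was 97.3 and 89.3 CPM in T-HCC941 and TCi-HCC981 and 188 and 208 CPM in T-HCA992 and TCi-HCA984, without overlap (log2 difference -1.11, SE 0.258, adjusted p = 0.388). Ccl5 was 9.72 and 11.2 CPM against 1.29 and 1.14 CPM (log2 difference 3.07, SE 1.2, adjusted p = 0.541). In these 4 tumors the mutation class goes with the histological names, carcinoma against adenoma, and the pair of factors cannot be told apart.

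Of the signalling partners of the family that the rule leaves out (other ligands, G protein subunits, kinases, proteases and the NF-κB and interferon factors), 31 were tested between tumors and livers, and 2 rose, the G protein subunit Gnb1 (log2 change 0.55, SE 0.121, adjusted p = 0.0129) and the receptor kinase Adrbk2 (2.74, adjusted p = 0.0253), where 10.7% of all genes were called. In the Ctnnb1 tumors against the other tumors 1 of 32 was higher, the chemokine-cleaving protease Dpp4 (1.35, adjusted p = 0.0101). Lower were 3, the NF-κB subunit Nfkb1 (-1.08, adjusted p = 0.0339), Adrbk2 (-2.58, adjusted p = 0.0482) and the chemerin-binding receptor Ccrl2 (-2.54, adjusted p = 0.0181), where 12.5% of all genes were called.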

How the data were processed

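Poly(A) RNA of 12 libraries was sequenced as paired ends. Per the study's methods the authors filtered reads on quality, used Subread to align them to mm10 with mCherry added, and ran featureCounts 1.6.4 to assign reads to genes. The deposited values are counts of reads per gene symbol, without normalization. The annotation release, strand setting and treatment of multiply aligned reads are not given in the sources used here. The authors corrected for the sequencing run, which is not given per sample and was not used here. Driver classes follow the exome of the study. The liver titled p_961 was taken as that of M662, the number in its column header.

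Counts were tested with edgeR 4.0.16 in R 4.3.3 (filterByExpr, TMM, quasi-likelihood F test, Benjamini-Hochberg adjustment over all genes, threshold 0.05). The comparison of all tumors with all livers used 2 groups. Those by genotype used 4 groups and those by mutation 4, with all 12 libraries in 1 model. The SE is the size of the log2 fold change over the square root of F. CPM are reads per 1000000 reads of the TMM-scaled library, and levels per kb use the merged exon length in GENCODE for GRCm38, so unused exons lower them. Steps were tested on simulated data.

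By the labels, tumors and livers of 1 number come from 1 animal, with L662 placed by the number in its column header. Deviations from the group means over 13822 genes correlated with r of 0.169, 0.0398, 0.00583, 0.427, 0.542 and 0.542 within M662, M663, M941, M992, M981 and M984, against a median of -0.0653 between mice. The equal values of M981 and M984 are 1 value, since in a pair the deviations from the mean mirror each other. Taking out group means also lowers the correlations between mice. These values therefore cannot establish the pairing, that of L662 included.

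The members, gene lists and comparisons were chosen with earlier results of these data known. Values are given for 29 members in particular: those the study names, those called (the 12 of smallest p where there were more), the 2 of smallest p where none was called, the 5 chemokines and 5 receptors highest per kb, the 5 of largest SD across tumors, and the atypical receptors. Alternatives were DESeq2 1.42.0, RLE size factors, no filter on low counts, the mouse as a block, fewer libraries in the model, leaving out each library, and a pseudocount of 0.1 in place of 1 CPM. The other tumors of the study were not analysed here, and 1 member and 1 partner gene are counted but not reported singly.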

Additional observations from a re-analysis of the deposited data

Results flagged for a closer look

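Single libraries far from the others of their group were looked for among the named members in the 4 p21+/Tert livers, the 4 p21+/Tert tumors, all 6 livers and all 6 tumors, on log2(CPM + 1). Of 98 such groups 10 had an extreme library. Chance gives about 1 in 20 for separate groups, but these groups overlap and some members were named for a large SD across tumors. The count is thus no test against chance. L981 was the extreme among the 6 livers for 6 members. It was the highest for Ccl2 (7.31 CPM, next 1.93), Ccl24 (23.1, next 2.58), Ccl4 (1.09, next 0.303), Ccl7 (1.89, next 0.388) and Cxcl10 (35.3, next 5.74), and the lowest for Cxcl12 (307 CPM, next 405).

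Among the p21+/Tert tumors, T-HCC663 was far above the others for Ccl24 (20.8 CPM, next 0.54). T-HCA992 was far above them for Cxcl12 (188 CPM, next 97.3) and was the only one with Ccl20 (1.0 CPM, next 0). Among all tumors, TCi-HCC981 was far above the others for Ccl22 (2.82 CPM, next 0.789).

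For 3 members the tumor lay on opposite sides of its own liver in 2 sets of mice. The share of all genes that do so was not computed, so the number shows nothing particular to the family. Ccl9 was lower in both Ctnnb1 tumors and higher in the 4 others, a difference in mean log2(CPM + 1) change of -2.15, and the blocked fit called it (adjusted p = 0.0156). Ackr1 was lower in both Ctnnb1 tumors and higher in the 4 others, by -1.19, and Ackr2 was higher in both p21+/TertCi tumors and lower in the 4 p21+/Tert tumors, by 1.04. Neither of these 2 passed the test of the difference in the block or without it.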

How the results depend on the processing

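Counts of called members moved by more than 1.5 times under these alternatives. In all tumors against all livers the 5 became 13 with DESeq2, 11 with the mouse as a replicate block, and 4 to 10 on leaving out each library. In p21+/Tert tumors against livers the 3 became 11 with DESeq2, 7 with the block, 5 with only the libraries of the groups compared, and 1 to 4 on leaving out each library. In p21+/TertCi tumors the 0 became 2 with DESeq2. In Ctnnb1 against other tumors the 2 became 6 with DESeq2, 1 without the filter, 1 with the block, 0 with only the tumors, and 0 to 2 on leaving out each library. In Egfr or Hras against neither mutation the 0 became 1 with DESeq2. In Ctnnb1 tumors against livers the 3 became 7 with DESeq2, 5 with the block, and 1 to 5 on leaving out each library. In the other tumors against livers the 13 became 8 to 18 on leaving out each library, the lowest without T-HCA992 and the highest without L981. RLE size factors moved no count by more than 1.5 times, and the interaction and the comparison of livers stayed at 0 under every alternative run. For the comparison of livers no blocked fit exists, since each liver is its own mouse.

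For single members, 552 of 648 values kept their direction and their side of the threshold, 59 lost a call, 22 gained a call and 15 changed sign. The cause of these changes was not tested. The changes of sign were all in members that were not called in that comparison. With the block Ccl24 was at -0.90. On leaving out 1 library, Ccl24 ran from -1.14 (without T-HCC663) to 2.06 (without L981), Ackr1 from -0.43 (without TCi-HCC981) to 0.71, Ackr2 from -0.58 to 0.09 and Cxcl1 from -0.58 to 0.30. A pseudocount of 0.1 CPM moved 8 of 29 median changes between a tumor and its own liver by more than their SD over mice, all of them members near or below 1 CPM in livers. Depth limits members at 1 CPM, which are 13 to 28 reads in a library.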

Other observations

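Members that the comparisons describe little or not at all are given here as values. Ccl6, a macrophage chemokine next to Ccl9 on chromosome 11, was 1.91 to 26.0 CPM in livers and 4.51 to 34.1 CPM in tumors, with M981 highest in both tissues. Ccl25, which draws Ccr9-bearing lymphocytes to mucosa, was 2.94 to 6.45 CPM in livers, 6.31 and 5.7 CPM in the Ctnnb1 tumors and 2.1 to 3.39 CPM in the 4 other tumors, without overlap between the tumor classes (log2 difference 0.98, SE 0.361, adjusted p = 0.0936). Xcr1, which marks cross-presenting dendritic cells, was 0.145 to 3.65 CPM in livers and 0.537 to 3.24 CPM in tumors, highest in both tissues of M981. Ccr10, a receptor for Ccl27a and Ccl28, was 3.51 CPM in T-HCC662 and at most 1.34 CPM in every other library. Ccr7, which guides dendritic cells and lymphocytes to lymph nodes, reached 3.65 CPM in TCi-HCC981 and was at most 1.64 CPM elsewhere.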
